A study of Mus musculus with 10 samples.

Results

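The genes described here are 44 mouse genes for collagens and the other proteins of the mesenchymal extracellular matrix, the fibrous network that connective tissue cells secrete around themselves. They were chosen by name: a probe set counted when the platform annotation paired it with 1 of the 44 symbols and no other gene, and when its signal was above the median of its array in 2 or more of the 10 arrays. A gene with several such probe sets is given by the one with the highest mean signal. By this rule 42 of the 44 genes were measured, among 13251 genes tested in all. Fbn1 (fibrillin) was not paired with a probe set, and the probe sets of Loxl2 (a lysyl oxidase) were paired with a further gene as well, so neither has a value here.

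The study compared 3 groups of mouse cells on Affymetrix 430 2.0 arrays. AG-haESC are haploid embryonic stem cells from androgenetic blastocysts, which carry paternal chromosomes only; the 5 lines have the C57BL/6J background. AGH-OG-1, AGH-OG-2, AGH-OG-3 and AGH-OG-4 carry an Oct4-EGFP transgene and were at passage 14, 15, 12 and 14, and AGH-EG-1 carries an Actin-EGFP transgene and was at passage 15. E14, a diploid line from a male 129/Sv embryo, stands for conventional embryonic stem cells; it is wild type, was at passage 17 and has 3 arrays. MEF are embryonic fibroblasts of male B6D2F1 d13.5 embryos, wild type, at passage 2, with 2 arrays. Before RNA was taken, the DNA dye Hoechst 33342 (15 µg/ml) was used to sort AG-haESC from the 1n peak and E14 and MEF from the 2n peak. AG-haESC grew on feeder cells with the inhibitors CHIR99021 and PD0325901, per the labels, which do not describe how E14 was grown. AG-haESC and E14 therefore differ in ploidy, parental origin, strain, transgene, passage and sort gate together, and these cannot be told apart. Feeder cells and medium may differ as well, and culture cannot be told apart from the rest either. MEF differ from both stem cell groups in cell type, strain and passage, and from AG-haESC in ploidy, parental origin, transgene and sort gate too. In the comparisons with MEF these cannot be told apart. Nothing in the labels says whether the arrays labelled as biological replicates of E14 and MEF came from separate cultures, so the p-values measure the spread between these arrays.

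Fibrillar collagens are trimers that fold in the endoplasmic reticulum with the chaperone Serpinh1, are trimmed outside the cell by proteases whose activity Pcolce enhances, and are cross-linked by lysyl oxidases. Decorin and related proteoglycans coat the fibrils, fibulins and microfibril proteins organise elastic fibres, and metalloproteinases with their Timp inhibitors remodel the whole. Fibroblasts are the classic source of this matrix, whereas early embryonic cells lay down basement membranes built on laminins, type IV collagen and nidogens.

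The cells carried the markers of their labels. The 11 markers of pluripotency examined, Pou5f1 and Nanog among them, were above the array median in all 11 cases in each stem cell array and in 2 of 11 in each MEF array. Of 13 fibroblast markers that are not matrix genes, such as Prrx1, Twist1, Snai2 and Acta2, all 13 were above the median in MEF, 7 to 10 in the AG-haESC lines and 6 or 7 in E14. Their summed linear signal was 87485 and 100694 in MEF, 1929 to 6989 in the AG-haESC lines and 1320 to 4670 in E14. Each array had been scaled to a trimmed mean signal of 500, and array medians ran from 55.9 to 68.0.

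In MEF all 42 matrix genes were above the array median in both arrays, and MEF had the highest group mean for 41 of them. For 5 genes (Col11a1, Col14a1, Mgp, Mfap4 and Fmod) the filter fixed both outcomes, since only the MEF arrays were above the median. These 5 are included in the counts and medians below. Values below are log2 of the array signal, with AG-haESC lines always in the order AGH-OG-1, AGH-OG-2, AGH-EG-1, AGH-OG-3 and AGH-OG-4, and E14 and MEF by replicate number. A gene was called when limma's adjusted p was below 0.05 and the groups differed by at least 2-fold. Against MEF, 41 of the 42 genes were lower in AG-haESC and 1, Nid2, was higher, where 22.5% and 19.7% of all tested genes were called lower and higher. In E14 against MEF 40 were lower and Nid2 again was higher, against 21.3% and 20.9% of all genes, and Fbln1 was not called. Both comparisons share the MEF arrays. The median log2 difference over the 42 genes was -5.33 for AG-haESC and -6.73 for E14, beside 0.00453 and 0.08 over all genes tested. With signals raised to their array median where they lay below it, those medians were -5.22 and -6.07. In bulk samples such as these, fewer cells of a type and less RNA per cell cannot be told apart.

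**Figure D1:**
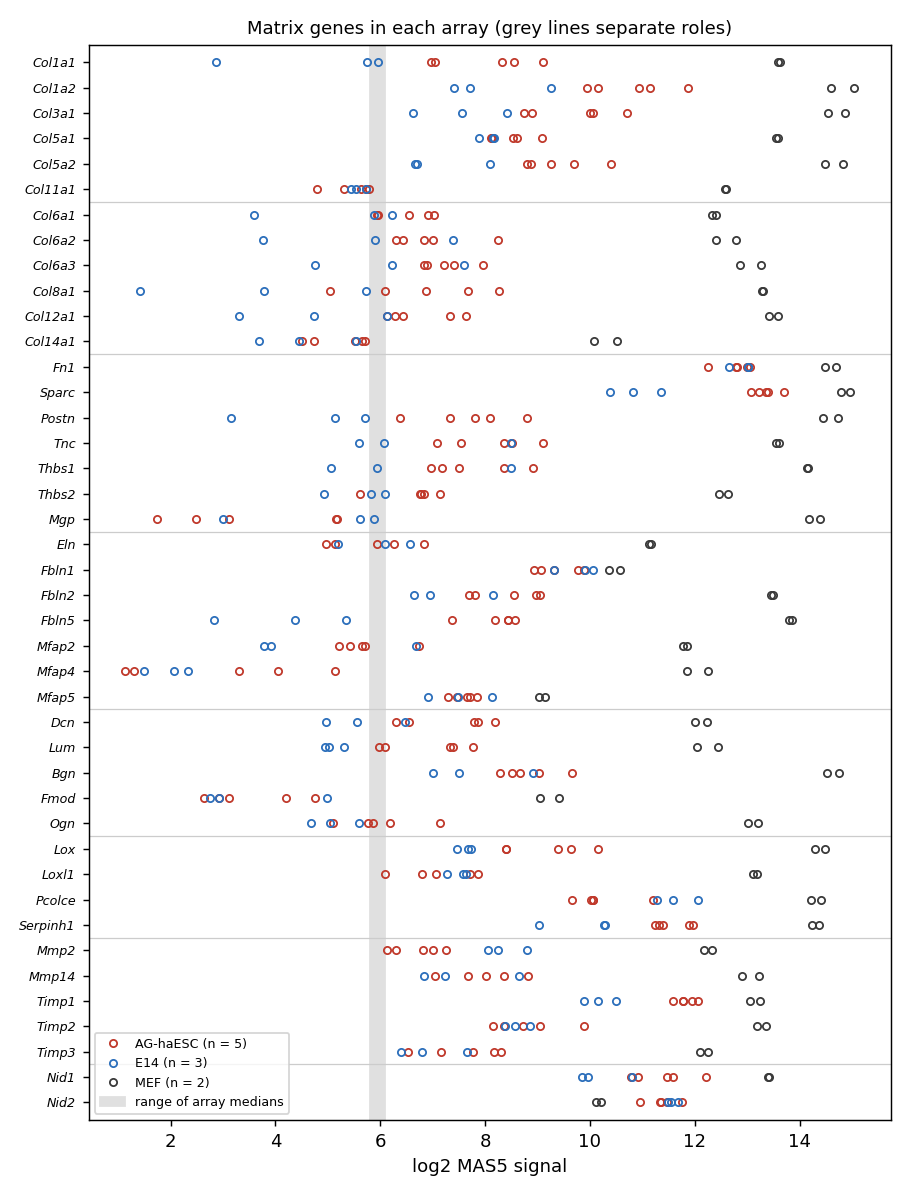
Log2 array signal of the 42 matrix genes in each of the 10 arrays, 1 row per gene ordered by role, with AG-haESC lines in red, E14 arrays in blue, MEF arrays in dark grey and the range of the array medians as a grey band. MEF lies to the right of the stem cell arrays for nearly all genes, Nid2 in the bottom row is the exception, and the red points lie to the right of the blue ones for many collagens.

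Between the stem cell groups, 15 of the 42 genes were higher in AG-haESC than in E14 and 2 were lower, while 25 were not called. Over all genes tested, 4.58% were called higher and 3.74% lower. The 15 were the collagen genes Col1a1, Col1a2, Col3a1, Col5a2, Col8a1 and Col12a1, the secreted proteins Sparc, Postn and Fbln5, the proteoglycans Dcn and Lum, the enzyme Lox, the chaperone Serpinh1, the inhibitor Timp1 and the basement membrane protein Nid1. The 2 lower genes were Pcolce and Mmp2. Among those not called, the AG-haESC mean was above E14 for 17 and below it for 8. The median difference over the 42 genes was 1.05, or 0.62 with low signals raised to the array median, beside -0.08 over all genes. Other probe sets disagreed for some of the 17: those of Col1a1, Col3a1 and Nid1 differed by 2.20, 1.20 and 2.17 and were not called, and neither were dim ones of Col1a2, Fbln5 and Col8a1, at -0.74, -0.53 and 0.49, or those of Col12a1, Sparc, Lox and Mmp2 given with these genes. All 5 AG-haESC lines lay above all 3 E14 arrays for 12 of the 42 genes and below them for 2, where 9.87% and 12.8% of all genes were placed so.

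**Figure D2:**
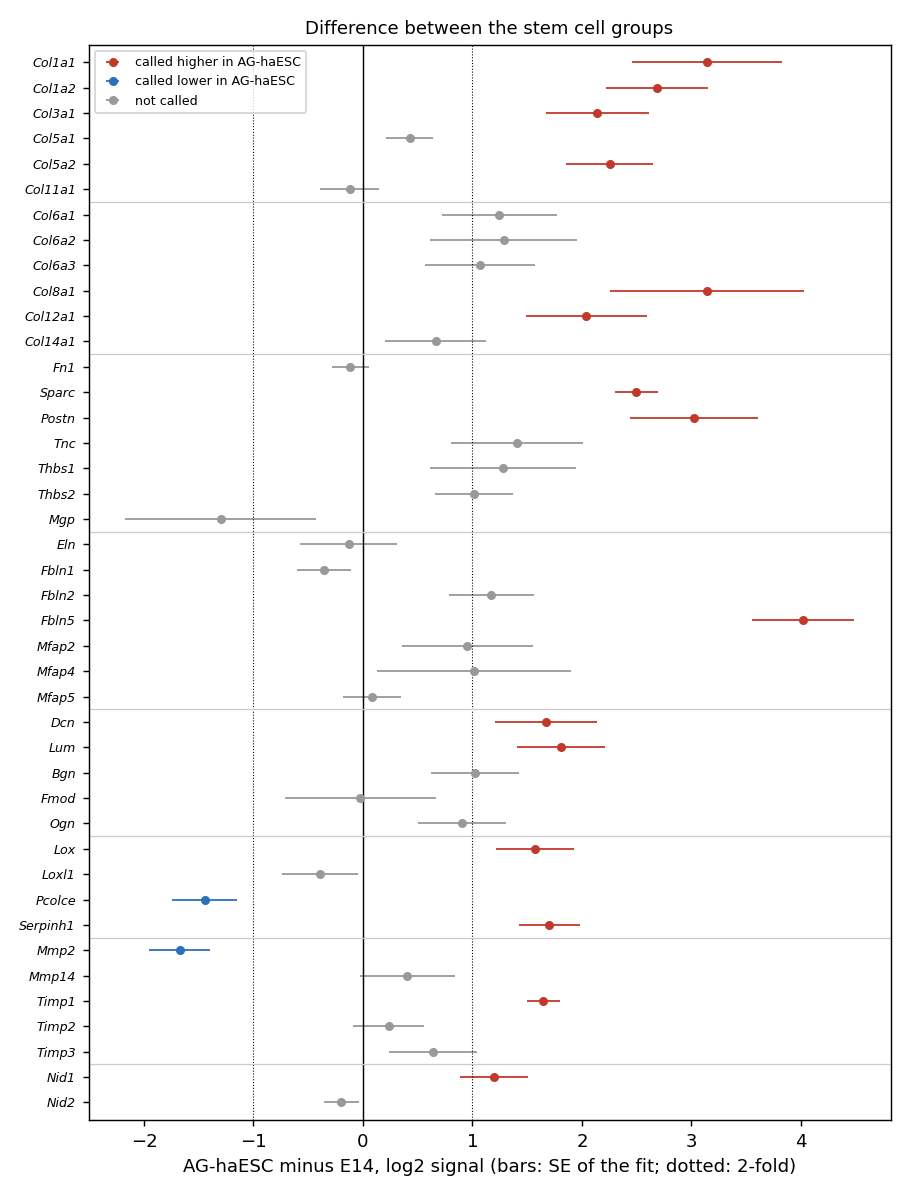
AG-haESC minus E14 difference in log2 signal for the 42 matrix genes, with the standard error of the limma fit as bars, called genes in red (15 higher) or blue (2 lower), others in grey, and dotted lines at 2-fold. The red points fall in every role group, and the blue points are Pcolce and Mmp2.

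The fibrillar collagens form the tensile fibres of skin, bone and tendon. All 6 were lower in both stem cell groups than in MEF, with a median difference of -5.16 for AG-haESC against MEF and -7.10 for E14 against MEF, and 4 of the 6 were higher in AG-haESC than in E14. Col1a2, an alpha chain of type I collagen, read 9.95, 11.86, 11.14, 10.16 and 10.93 in the AG-haESC lines, 7.40, 7.71 and 9.25 in E14 and 15.04 and 14.60 in MEF. Every AG-haESC line was above every E14 array, and AGH-OG-2 was the highest line. The difference from E14 was 2.69 ± 0.47 (SE), limma adjusted p = 0.00303, and that from MEF was -4.01 ± 0.53 (SE), adjusted p = 5.82e-05. Col1a1, the partner chain in type I collagen, read 6.96, 9.10, 8.33, 7.04 and 8.55 in the AG-haESC lines, 5.74, 2.87 and 5.96 in E14 and 13.60 and 13.63 in MEF. All 3 E14 arrays were below the median of their array, so its level in AG-haESC was at least 3.89-fold higher than in E14, taking E14 at the array medians, with adjusted p = 0.0106. Col3a1, the chain of type III collagen that accompanies type I in distensible tissues, read 8.74, 10.71, 10.05, 8.90 and 9.998 in the AG-haESC lines, 6.63, 7.56 and 8.42 in E14 and 14.86 and 14.54 in MEF. The lines and the E14 arrays did not overlap, and the difference was 2.14 ± 0.47 (SE), adjusted p = 0.0108. Col5a2, a type V chain that helps start fibrils, read 8.81, 10.39, 9.70, 8.87 and 9.27 in the AG-haESC lines, 6.70, 6.67 and 8.10 in E14 and 14.83 and 14.49 in MEF. Here too the groups did not overlap, at 2.25 ± 0.40 (SE) and adjusted p = 0.00335. Col5a1, its partner chain, differed between the stem cell groups by 0.43 ± 0.21 (SE), adjusted p = 0.205. Col11a1, a chain of cartilage collagen, was below the array median in every stem cell array and was at least 99.7-fold lower in AG-haESC than in MEF.

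Promoter sequence is shown for 4 genes whose patterns contrast: Col1a2 and Col3a1, which varied from line to line, Timp1, which was even over the lines, and Pcolce, which was lower in AG-haESC than in E14. Each is the 250 bases before the annotated start in RefSeq on GRCm38.p6, read 5′ to 3′ on the strand of the gene, with capitals marking matches on either strand to the TATA box (letters TATAAA), the CCAAT box and the GC box (letters GGGCGG). The windows are chr6:4505368-4505617, plus strand; chr1:45311288-45311537, plus strand; chrX:20869916-20870165, plus strand; and chr5:137611405-137611654, minus strand.
Col1a2: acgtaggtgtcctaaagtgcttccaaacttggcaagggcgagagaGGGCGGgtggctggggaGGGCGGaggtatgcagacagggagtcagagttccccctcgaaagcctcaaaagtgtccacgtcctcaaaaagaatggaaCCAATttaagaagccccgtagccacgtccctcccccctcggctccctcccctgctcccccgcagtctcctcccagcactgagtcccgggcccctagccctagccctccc
Col3a1: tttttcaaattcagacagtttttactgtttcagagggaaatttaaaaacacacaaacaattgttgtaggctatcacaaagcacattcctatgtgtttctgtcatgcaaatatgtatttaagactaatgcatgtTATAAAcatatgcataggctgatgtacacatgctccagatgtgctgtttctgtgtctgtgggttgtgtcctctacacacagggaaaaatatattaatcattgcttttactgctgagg
Timp1: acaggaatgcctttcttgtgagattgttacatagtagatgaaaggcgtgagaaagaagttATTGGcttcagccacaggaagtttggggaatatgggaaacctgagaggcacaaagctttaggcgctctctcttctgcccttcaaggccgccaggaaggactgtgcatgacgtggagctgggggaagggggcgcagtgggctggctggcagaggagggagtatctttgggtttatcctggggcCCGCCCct
Pcolce: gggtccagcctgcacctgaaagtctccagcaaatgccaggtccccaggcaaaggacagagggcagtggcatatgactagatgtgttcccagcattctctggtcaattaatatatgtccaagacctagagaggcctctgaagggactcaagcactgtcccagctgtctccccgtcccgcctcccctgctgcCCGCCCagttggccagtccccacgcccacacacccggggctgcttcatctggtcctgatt
Col1a2 has 2 GC boxes and 1 CCAAT box in a window of 62.0% G and C, Col3a1 has 1 TATA box in a window of 35.2%, Timp1 has 1 CCAAT box and 1 GC box on the opposite strand, and Pcolce has 1 GC box there. Promoters were matched by symbol for 27 of the 44 genes, 33 windows in all. The GC box was found in 63.6% of the 33 windows and in 32.7% of 32841 windows of the table. The shares were 18.2% and 12.4% for the TATA box, 27.3% and 33.9% for the CCAAT box, 18.2% and 12.6% for the core of TEAD sites (letters GGAATG), and 3.03% and 6.75% for AP-1 sites (letters TGANTCA). These are letter matches on either strand and describe sequence alone.

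The other collagens form microfilaments, networks and fibril surfaces. All 6 were lower in both stem cell groups than in MEF, with a median difference of -5.85 for AG-haESC against MEF and -7.03 for E14 against MEF. Col8a1, a short-chain collagen of vessel walls and the cornea, read 6.09, 8.26, 7.67, 5.04 and 6.86 in the AG-haESC lines, 3.78, 1.41 and 5.73 in E14 and 13.31 and 13.29 in MEF. Its 3 E14 arrays were below their medians and the AGH-OG-3 value lay among them, and the level in AG-haESC was at least 1.68-fold higher, adjusted p = 0.0333. Col12a1, which decorates fibril surfaces, read 6.13, 7.63, 6.44, 6.28 and 7.33 in the AG-haESC lines, 4.74, 3.30 and 6.13 in E14 and 13.42 and 13.60 in MEF. The lowest line was above the highest E14 array by a small step, and the difference was 2.04 ± 0.55 (SE), adjusted p = 0.0282. Its other probe set went the opposite way by -1.10 and was not called, and averaging both probe sets gave 0.47, so the Col12a1 difference holds for 1 probe set only. The Col8a1 and Col12a1 calls were both lost without any 1 of E14 replicate 1, E14 replicate 2, AGH-OG-2 and AGH-OG-4, and that of Col8a1 also without AGH-EG-1. The 3 type VI chains, Col6a1, Col6a2 and Col6a3, which make beaded microfilaments around cells, differed between the stem cell groups by 1.25, 1.28 and 1.07 with limma adjusted p = 0.132, 0.223 and 0.179. Col14a1, another fibril-associated collagen, was below the array median in every stem cell array and was at least 20.2-fold lower in AG-haESC than in MEF.

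Among the adhesive and matricellular proteins, Sparc and Fn1 in AG-haESC differed far less from MEF than any collagen gene did. Sparc, a calcium-binding glycoprotein that binds collagen and is also abundant in parietal endoderm, read 13.40, 13.36, 13.08, 13.22 and 13.70 in the AG-haESC lines, 10.83, 10.38 and 11.36 in E14 and 14.96 and 14.80 in MEF. The 5 lines lay within a narrow band between E14 and MEF, overlapping neither. AG-haESC differed from E14 by 2.50 ± 0.19 (SE), adjusted p = 2.41e-05, and from MEF by -1.53 ± 0.22 (SE), adjusted p = 0.000117. Of its 2 other probe sets, 1 was called with a difference of 2.34 and 1, much dimmer in MEF, was not. Postn (periostin), a matricellular protein of periosteum and other collagen-rich tissue, read 6.38, 8.80, 8.10, 7.33 and 7.80 in the AG-haESC lines, 5.13, 3.14 and 5.70 in E14 and 14.74 and 14.45 in MEF. E14 was below the array medians throughout, and AG-haESC was at least 3.13-fold higher, adjusted p = 0.00571, with no overlap. Even so, Postn in AG-haESC differed from MEF by -6.91 ± 0.67 (SE). Fn1 (fibronectin), the main adhesive glycoprotein for integrins, differed between the stem cell groups by -0.12 ± 0.17 (SE), adjusted p = 0.685, and its difference from MEF was -1.81 in AG-haESC and -1.69 in E14. Tnc (tenascin C), Thbs1 and Thbs2 (thrombospondins) had differences of 1.41, 1.28 and 1.01 between the stem cell groups and were not called. Mgp, an inhibitor of calcification, was below the array median in every stem cell array and was at least 320-fold lower in AG-haESC than in MEF. Against MEF all 7 genes were lower in both groups, with a median difference of -5.93 for AG-haESC against MEF and -6.94 for E14 against MEF.

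Of the elastic fibre and microfibril genes, 7 of 8 were measured, all 7 were lower in AG-haESC than in MEF and 6 were lower in E14, with a median difference of -5.32 for AG-haESC against MEF and -6.23 for E14 against MEF. Fbln5 (fibulin 5), which is needed to assemble elastic fibres, read 8.44, 8.44, 8.19, 7.36 and 8.57 in the AG-haESC lines, 4.37, 2.82 and 5.35 in E14 and 13.79 and 13.86 in MEF. The E14 arrays were all below their medians and the AG-haESC lines all well above them, so AG-haESC was at least 4.47-fold higher, adjusted p = 0.000263. A second, dim probe set of Fbln5 went the opposite way by -0.53 and was not called. Fbln1 (fibulin 1), a matrix glycoprotein also found in basement membranes, lay at 34.7% to 66.7% of the MEF signal in the AG-haESC lines and 44.7% to 75.3% in E14, with differences of -1.07 ± 0.28 (SE) in AG-haESC, adjusted p = 0.00653, and -0.71 ± 0.31 (SE) in E14, adjusted p = 0.0675. The Fbln1 call in AG-haESC was lost without AGH-OG-2, without AGH-EG-1, without MEF replicate 1 and with quantile scaling, and with the mean of its probe sets Fbln1 was called lower in E14 as well, at -1.08. Its second probe set was called lower in both groups, at -1.69 and -1.44. Mfap5, a microfibril glycoprotein, differed from MEF by -1.49 and -1.57 and between the stem cell groups by 0.08 ± 0.26 (SE). Eln (elastin), Fbln2 and Mfap2 differed between the stem cell groups by -0.13, 1.17 and 0.95 and were not called. Mfap4 was below the array median in every stem cell array.

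All 5 small leucine-rich proteoglycans were lower in both stem cell groups than in MEF, with a median difference of -5.70 for AG-haESC against MEF and -6.83 for E14 against MEF. Bgn (biglycan), which binds collagen and growth factors, read 8.51, 9.66, 9.03, 8.28 and 8.67 in the AG-haESC lines, 7.0, 7.50 and 8.91 in E14 and 14.76 and 14.52 in MEF. E14 replicate 3 lay among the AG-haESC lines, and the difference of 1.02 ± 0.40 (SE) was not called, adjusted p = 0.108. Lum (lumican), which spaces collagen fibrils in the cornea, read 5.98, 7.38, 7.77, 6.09 and 7.33 in the AG-haESC lines, 5.03, 5.32 and 4.95 in E14 and 12.44 and 12.04 in MEF. All E14 arrays were below their medians and below every line, and AG-haESC was at least 1.83-fold higher, adjusted p = 0.0115. Dcn (decorin), which binds collagen fibrils, read 6.54, 8.18, 7.78, 6.31 and 7.87 in the AG-haESC lines, 5.56, 6.47 and 4.96 in E14 and 12.23 and 12.01 in MEF. AGH-OG-3 and E14 replicate 2 overlapped, and the difference was 1.67 ± 0.46 (SE), adjusted p = 0.0322; its call was lost without any 1 of AGH-OG-2, AGH-EG-1, AGH-OG-4, E14 replicate 1 and E14 replicate 3. Ogn (osteoglycin) differed by 0.90 and was not called, and Fmod (fibromodulin) was below the array median in every stem cell array.

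The genes for folding, processing and cross-linking of collagen were called in both directions between the stem cell groups. Against MEF the 4 measured were lower in both groups, with a median difference of -4.66 for AG-haESC against MEF and -5.05 for E14 against MEF. Serpinh1 (HSP47), the collagen chaperone, read 11.39, 11.31, 11.24, 11.90 and 11.96 in the AG-haESC lines, 10.27, 10.28 and 9.02 in E14 and 14.38 and 14.24 in MEF. All lines were above all E14 arrays, at 1.70 ± 0.28 (SE) and adjusted p = 0.00226, and the second probe set was called too. Lox, the lysyl oxidase that starts cross-links, read 8.40, 10.15, 9.39, 8.40 and 9.64 in the AG-haESC lines, 7.47, 7.72 and 7.67 in E14 and 14.50 and 14.29 in MEF. The groups did not overlap, the difference was 1.57 ± 0.36 (SE), adjusted p = 0.0129, and 2 of its 3 probe sets were called. Pcolce, which enhances the removal of the collagen C-propeptide, read 10.06, 11.21, 10.06, 9.66 and 10.02 in the AG-haESC lines, 11.28, 11.59 and 12.07 in E14 and 14.41 and 14.23 in MEF. Every line was below every E14 array, at -1.44 ± 0.30 (SE) and adjusted p = 0.00754, and both probe sets were called lower. The step between AGH-OG-2 and E14 replicate 1 was small. Loxl1 differed by -0.39 ± 0.35 (SE) and was not called.

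Among the proteases and their inhibitors all 5 genes were lower in both stem cell groups than in MEF, with a median difference of -4.60 for AG-haESC against MEF and -4.68 for E14 against MEF. Timp1, a secreted inhibitor of metalloproteinases, read 11.77, 11.59, 12.07, 11.95 and 11.77 in the AG-haESC lines, 9.90, 10.15 and 10.51 in E14 and 13.06 and 13.26 in MEF. The lines spread by an SD of 0.18 and lay between E14 and MEF without overlap, at 1.65 ± 0.15 (SE) from E14, adjusted p = 6.59e-05, and -1.33 ± 0.18 (SE) from MEF. Mmp2, a gelatinase that degrades type IV collagen and denatured collagen, read 7.25, 6.81, 6.13, 6.29 and 7.0 in the AG-haESC lines, 8.24, 8.81 and 8.06 in E14 and 12.17 and 12.33 in MEF. Every line was below every E14 array, at -1.67 ± 0.28 (SE) and adjusted p = 0.0024, while the second probe set differed by -0.99 and fell short of 2-fold. Timp2, an inhibitor that also takes part in the activation of Mmp2, read 8.15, 9.90, 9.05, 8.36 and 8.73 in the AG-haESC lines, 8.57, 8.86 and 8.38 in E14 and 13.19 and 13.37 in MEF. The stem cell groups overlapped and the difference of 0.23 ± 0.33 (SE) was not called. Mmp14, the membrane protease that activates Mmp2, and Timp3, which stays bound to matrix, differed between the stem cell groups by 0.41 and 0.64 and were not called.

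The nidogens link laminin to type IV collagen in basement membranes. Nid2 read 11.34, 11.36, 10.95, 11.47 and 11.77 in the AG-haESC lines, 11.56, 11.68 and 11.49 in E14 and 10.12 and 10.22 in MEF. Every stem cell array was above both MEF arrays, with differences of 1.21 ± 0.18 (SE) in AG-haESC, adjusted p = 0.000151, and 1.41 ± 0.20 (SE) in E14, adjusted p = 0.000106. Nid1 read 12.22, 11.48, 10.79, 10.91 and 11.59 in the AG-haESC lines, 9.84, 9.96 and 10.80 in E14 and 13.40 and 13.41 in MEF. It was highest in MEF, and AGH-EG-1 overlapped with E14 replicate 3. AG-haESC was above E14 by 1.20 ± 0.31 (SE), adjusted p = 0.0231, a call that was lost without AGH-OG-1, without E14 replicate 1 and without E14 replicate 2.

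Relative to MEF, the 42 genes fell into levels that differed widely. In the AG-haESC mean 8 genes were over 10% of the MEF signal: Fn1 at 28.5%, Sparc at 34.7%, Fbln1 at 47.6%, Mfap5 at 35.7%, Serpinh1 at 14.9%, Timp1 at 39.8%, Nid1 at 24.9% and Nid2 at 231%. The other 34 lay between 0.058% and 6.21% of MEF, with a median of 2.03%, and the lowest of these were at or under the array medians. The median of the same 34 genes in the E14 mean was 0.841%. In the AG-haESC mean Col1a2 was at 6.21%, Col3a1 at 3.07%, Col1a1 at 2.03% and Postn at 0.829% of MEF. In the E14 mean the values were 0.964%, 0.697%, 0.231% and 0.102%, the last 2 from signals below the array medians. Such percentages depend on the probe set. For Col1a2, Col3a1 and Col1a1 those used differed from MEF by -4.01, -5.02 and -5.62 in AG-haESC. Another probe set of each, also bright in MEF, differed by -5.68, -7.09 and -7.03.

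**Figure D3:**
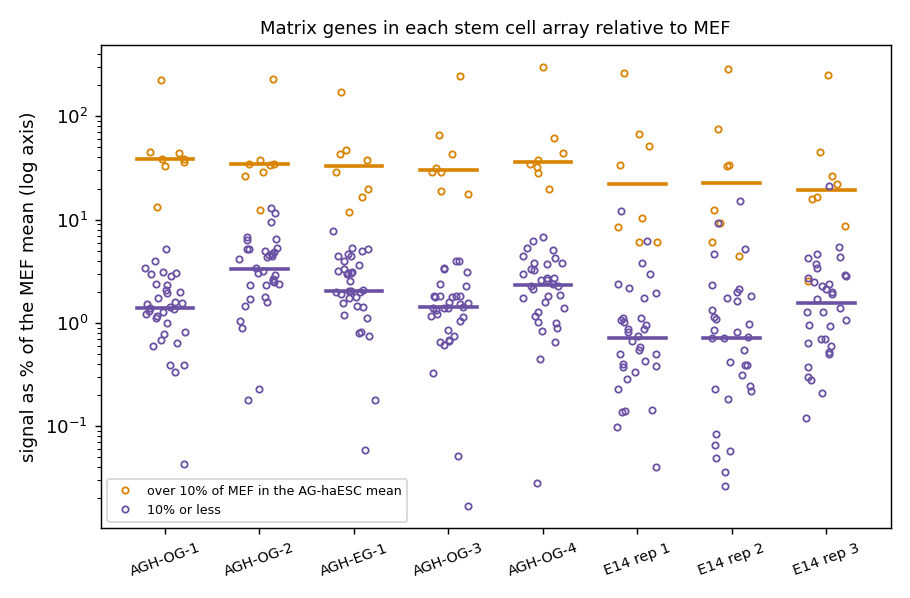
Signal of the 42 matrix genes in each stem cell array as a percentage of the MEF mean, on a log axis, with 1 point per gene and bars at the medians of the 8 genes over 10% (orange) and the other 34 (purple). The orange medians of the AG-haESC lines stay between 30.5% and 38.5%, while the purple medians run from 1.41% in AGH-OG-1 to 3.31% in AGH-OG-2, and in E14 from 0.709% to 1.55%.

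For most of the 34 low genes the same AG-haESC line was the highest. AGH-OG-2 was the highest of the 5 lines for 27 of the 34 low genes (79.4%) and for 16.0% of all genes tested. It was the highest for none of the 8 others, too small a set to tell from that share. Of those 8, AGH-OG-4 was the highest for 4 and AGH-EG-1 the lowest for 5, against 25.7% and 24.6% of all genes. AGH-OG-1 was the lowest line for 16 of the 34 and AGH-OG-3 for 14, against 15.0% and 26.2% of all genes. The SD over the lines had a median of 0.73 for the 34 genes and 0.31 for the 8, beside 0.29 over all genes tested. These SDs were not matched for signal level. The largest, 1.74 for Mfap4, was at a mean log2 signal of 2.98, below the array medians. In E14, replicate 3 was the highest of the 3 arrays for 24 of the 34 low genes and for 3 of the 8, and it was highest for 34.7% of all genes. It was the lowest for 6 of the 34, for 5 of the 8 and for 50.1% of all genes. The split at 10% was chosen after the levels were seen, and these counts are a description with no test.

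Fibroblast markers outside the matrix genes varied over the same arrays. Acta2 (smooth muscle actin) read 9.94, 12.17, 11.35, 10.42 and 10.75 in the AG-haESC lines, 8.10, 8.53 and 10.90 in E14 and 15.02 and 14.72 in MEF. Tagln (transgelin) read 8.0, 10.15, 9.71, 8.64 and 8.99 in the AG-haESC lines, 7.36, 7.43 and 10.67 in E14 and 14.19 and 13.95 in MEF. For both genes AGH-OG-2 was the highest and AGH-OG-1 the lowest line, and E14 replicate 3 was far above the other E14 arrays. The summed signal of the 13 markers was 1929, 6989, 4298, 2717 and 3153 in the AG-haESC lines and 1320, 1517 and 4670 in E14. Acta2 and Tagln made up 5729 of the 6989 in AGH-OG-2 and 3539 of the 4670 in E14 replicate 3. The other 11 markers summed to 694, 1260, 861, 946 and 921 in the lines and 882, 975 and 1131 in E14. Of these 13 markers 1 was called between the stem cell groups, Cd248, higher in AG-haESC with limma adjusted p = 0.000587. Of all genes tested, 4.58% were called higher. Its E14 arrays were all below their medians and the AG-haESC lines read 5.82, 6.62, 6.00, 5.36 and 5.08, on both sides of theirs, so no fold is given. Twist1 read 5.89, 5.71, 6.45, 6.64 and 6.05 in the AG-haESC lines, 6.79, 6.63 and 5.47 in E14 and 11.02 and 11.00 in MEF, and Snai2 read 7.14, 6.98, 6.74, 7.86 and 7.20 in the AG-haESC lines, 6.79, 6.94 and 7.09 in E14 and 13.11 and 12.85 in MEF. For these 2 transcription factors AGH-OG-2 was not the highest line, whereas Prrx1 read 5.39, 7.32, 6.12, 4.90 and 5.97 in the AG-haESC lines, 4.21, 4.30 and 6.12 in E14 and 12.79 and 12.46 in MEF. Over the whole list AGH-OG-2 was the highest line for 7 of the 13 markers (Acta2, Cd248, Prrx1, S100a4, Tagln, Thy1 and Twist2) and AGH-OG-3 for 4. E14 replicate 3 was the highest E14 array for 8 of the 13, Prrx1, Snai2 and Twist2 among them. Meox2, a mesenchymal homeobox gene, was below the array median in every stem cell array. The part of the fibroblast markers in the matrix results was not tested.

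**Figure D4:**
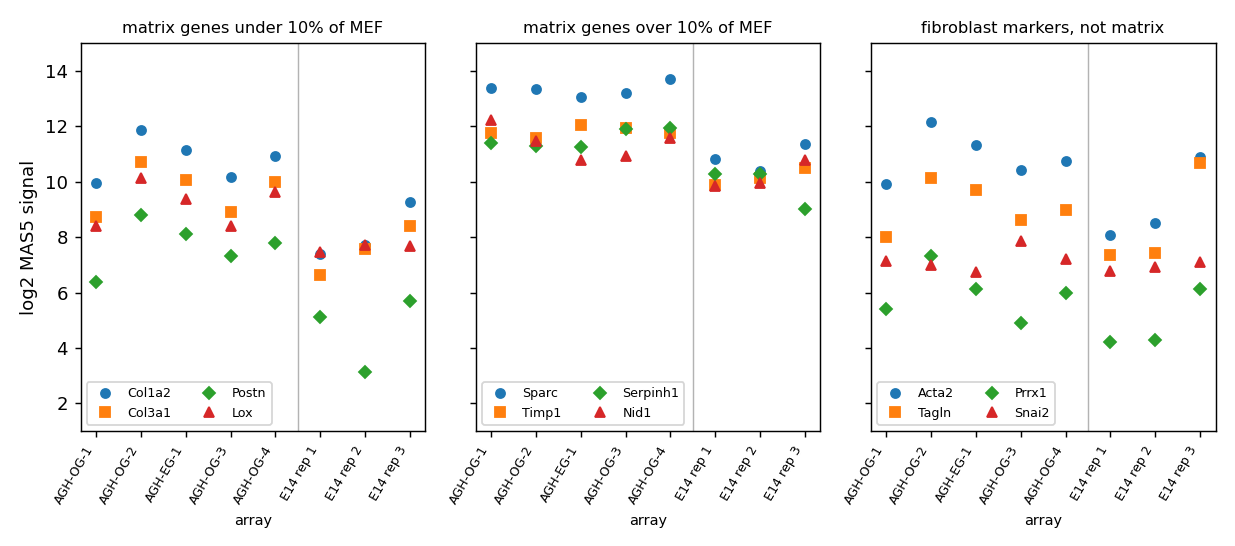
Log2 signal in the 5 AG-haESC lines and the 3 E14 arrays for 4 matrix genes under 10% of MEF (left), 4 matrix genes over 10% (middle) and 4 fibroblast markers that are not matrix genes (right). Col1a2, Col3a1, Postn and Lox peak in AGH-OG-2, as do Acta2 and Prrx1, Tagln is highest in E14 replicate 3 and next in AGH-OG-2, Sparc, Timp1, Serpinh1 and Nid1 do not peak there, and Snai2 spans 6.74 to 7.86.

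E14 replicate 3 had the highest marker sum in its group and was also the lowest E14 array for 50.1% of all genes tested. Leaving it out left 24 of the 42 genes called between the stem cell groups, 22 higher and 2 lower, where 684 and 666 of 13251 genes were called. Bgn, Col6a1, Col6a2, Col6a3, Fbln2, Mfap2, Thbs1 and Tnc were then called higher and Dcn was not. Leaving out AGH-OG-2, the line with the highest marker sum, left 12 higher and 2 lower, with Col8a1, Col12a1 and Dcn no longer called. Over all 13251 genes, 523 were then called higher and 433 lower. Leaving out E14 replicate 1 left 9 higher and 2 lower, with Col3a1, Col8a1, Col12a1, Dcn, Lox and Nid1 no longer called. In that fit 518 of all genes were called higher and 325 lower. Col1a1, Col5a2, Sparc, Postn, Fbln5, Serpinh1, Timp1, Pcolce and Mmp2 were called with each of the 10 arrays left out in turn and under each other alternative run on genes. With signals raised to the array median, Col8a1, Col12a1, Dcn and Lum were not called, and with the mean of a gene's probe sets Col1a2 and Col12a1 were not.

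The genes that work beside these proteins were examined as lists of non-member genes. Of all genes tested, 22.5% were called lower and 19.7% higher than MEF in AG-haESC, and 21.3% and 20.9% in E14. Between the stem cell groups 4.58% were higher and 3.74% lower in AG-haESC. Lama2, Lama4, P4ha3, P3h2, Itga4, Itgb3, Itgb8, Mmp13, Mmp19 and Plau passed the filter through the MEF arrays alone, which fixed their direction against MEF. Of 14 basement membrane genes tested, 7 were lower and 1 higher than MEF in AG-haESC, and likewise 7 and 1 in E14; the higher gene in both was Lama5, a laminin chain of epithelial basement membranes, which differed from MEF by 1.45 ± 0.32 (SE) in AG-haESC. Lama4, a laminin chain of vessels and mesenchyme, was at least 46.5-fold lower in AG-haESC. Col4a5, a type IV collagen chain, differed from MEF by -4.82 in AG-haESC, and Lama2, the laminin chain of muscle, was at least 11.9-fold lower. In E14 Lama4, Col4a5 and Col4a2 were lower, at least 44-fold and 36.5-fold for the first pair and by -5.07 for Col4a2. Between the stem cell groups 1 of the 14 was called, Lama1, a laminin chain of early embryonic basement membranes, at least 2.33-fold lower in AG-haESC, adjusted p = 0.0104.

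Of 17 genes for collagen biosynthesis, 13 were lower than MEF in AG-haESC and 12 in E14, and none higher. P4ha3 (a prolyl 4-hydroxylase) and P3h2 (a prolyl 3-hydroxylase) were at least 14.4-fold and 7.31-fold lower in AG-haESC, and Bmp1, the procollagen C-proteinase, differed by -4.83. In E14 Bmp1 differed by -4.91, P4ha3 was at least 13.7-fold lower and P3h3 differed by -4.28. By limma none of the 17 was called between the stem cell groups, where 7 had an unadjusted p below 0.05, and their median difference was -0.42.

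Of 18 receptors for matrix, 14 were lower and 1 higher than MEF in AG-haESC, and 15 and 1 in E14. The higher one in both was Itga6, a laminin receptor chain, at 1.47 ± 0.31 (SE) and 1.15 ± 0.34 (SE). Ddr2, a receptor tyrosine kinase for fibrillar collagen, differed by -6.01 in AG-haESC and was at least 73.4-fold lower in E14. The integrin chains Itgb8 and Itga8 were lower in AG-haESC, at least 6.06-fold and by -4.93, and Itga1 and Itgb3 in E14, at least 7.98-fold and 3.83-fold. The syndecans Sdc4 and Sdc2, cell surface proteoglycans, were higher in AG-haESC than in E14 by 1.88 ± 0.25 (SE), adjusted p = 0.000554, and 1.42 ± 0.22 (SE), adjusted p = 0.00154.

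All 15 other matrix proteases and inhibitors tested were lower than MEF in both groups. For Mmp13, Mmp19 and Plau the filter had fixed this direction. Mmp13 (collagenase 3) was at least 13.2-fold lower in AG-haESC and 12.5-fold in E14. Adamts1 and Adamts5, which cleave proteoglycans, differed by -5.89 and -5.81 in AG-haESC, and Adam12 and Adamts5 were at least 23.5-fold and 47.5-fold lower in E14. Between the stem cell groups 2 of the 15 were called, both higher in AG-haESC. They were Htra1, a secreted serine protease, at 3.36 ± 0.30 (SE), adjusted p = 5.24e-05, and Plat, the tissue plasminogen activator, at 1.99 ± 0.35 (SE), adjusted p = 0.00301.

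Markers of other cell types that can make matrix were set beside these results. Sparc and Nid1 are also made by extraembryonic endoderm, and of 8 endoderm markers tested 5 or 6 were above the array median in the AG-haESC lines, 2 to 5 in E14 and 2 in MEF. Their summed signal was 719 to 1156 in the AG-haESC lines, 473 to 763 in E14 and 2985 and 3172 in MEF. Dab2, a cargo adaptor not confined to endoderm, read 11.33 and 11.25 in MEF and carried most of that sum. The same 4 of the 8 markers (Afp, Amn, Hnf4a and Sox17) were called above MEF in both stem cell groups. Gata6 and Dab2 were called below MEF in both. Hnf4a read 3.47, 5.77, 5.91, 3.66 and 3.77 in the AG-haESC lines and 6.75, 6.79 and 5.34 in E14. Of the lines, only AGH-EG-1 had Hnf4a above its array median, and both MEF arrays had it below. Sox17 in the AG-haESC lines lay on both sides of the array medians. Afp (alpha-fetoprotein) was called between the stem cell groups, at least 2.28-fold higher in AG-haESC, limma adjusted p = 0.00171. For Afp only the AG-haESC lines were above the median, so the filter fixed that direction. In this comparison 5 of the 8 endoderm markers had an unadjusted limma p below 0.05 in either direction, and their list had a median difference of 0.62. Of the other lists, 0 of 8 macrophage markers (1 with an unadjusted limma p below 0.05), 1 of 8 muscle markers (Mylpf) and 1 of 6 cartilage and bone markers (Col2a1) were called higher in AG-haESC than in E14, and 2 of 6 endothelial markers (Egfl7, Ramp2) were called lower. Against MEF, 5 of the 8 macrophage markers, 6 of the muscle, 3 of the endothelial and 3 of the cartilage and bone markers were lower in AG-haESC, and 5, 5, 1 and 3 in E14. In the same order, 0, 1, 1 and 0 were called higher than MEF in AG-haESC and 0, 1, 2 and 0 in E14. The shares over all genes tested are those given above for the matrix genes. Lyz2 (lysozyme), for one, was at least 51.6-fold lower in AG-haESC, and all 8 macrophage markers were above the median in MEF, 2 or 3 in each stem cell array. Lyz2, Fcer1g, Ptprc and Tyrobp passed the filter through the MEF arrays alone, which fixed their direction against MEF. The same holds for Myod1, Myog, Tnnt3, Emcn and Sox9 of the other lists. The summed macrophage signal was 458 to 597 in the AG-haESC lines, 575 to 709 in E14 and 5038 and 5687 in MEF. The part of these markers in the matrix results was not tested.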

How the data were processed

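Total RNA was amplified, labelled with biotin and measured on 10 Affymetrix arrays. The authors deposited MAS5 signal per probe set, a linear intensity, and every array of the deposited table has the same mean of 500 after trimming 2% at each end; MAS5 is named in the submitters' processing notes and no setting of it is stated there. Number of arrays limits the precision. Of 45101 probe sets, 64 were controls, 34945 had 1 gene symbol, 932 several and 9160 none in the platform annotation. Probe sets above their array's median in 2 or more arrays were kept (27505; 92 of 99 for the genes described), and the brightest stood for each gene.

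Signals were taken to log2 with no pseudocount and fitted with limma 3.58.1 in R 4.3.3 as 3 group means over all 10 arrays, with 7 residual degrees of freedom, a trended prior and two-sided p adjusted by Benjamini-Hochberg over 13251 genes. The scripts were tested on simulated data. Where all arrays of the dimmer group lay below their array medians, that group was set at the mean of its log2 medians and the fold given as "at least". Levels of different genes were not compared.

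The genes and all lists were chosen with earlier results of these data known. Values in every array are given for the member with the highest MEF mean and the member with the largest AG-haESC minus E14 difference in each role, for members called between the stem cell groups and for members not highest in MEF; non-member lists name up to 3 called genes per comparison. Acta2, Tagln, Twist1, Snai2, Prrx1, Lyz2, Dab2, Lama5, Itga6 and genes named by a change under an alternative were chosen after their values were seen. The E14 and MEF arrays share replicate numbers, but the deviations of equal numbers correlated at r = -0.0264 over genes, so they were not treated as pairs. Alternatives covered pseudocount, floor, scaling, filter, probe set choice, prior, arrays in the fit, array weights and leaving out each array.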

Additional observations from a re-analysis of the deposited data

Results flagged for a closer look

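In 2 of the 42 genes, 1 AG-haESC line stood apart from the other 4 by a gap too large for Dixon's test of 5 values. Chance gives about 1 such group in 20, and 2 of 42 is close to that rate. Thbs2 (thrombospondin 2) read 5.61 in AGH-OG-1 on the log2 scale, where the other lines lay between 6.77 and 7.13. Pcolce, the enhancer of procollagen processing, read 11.21 in AGH-OG-2, where the other lines lay between 9.66 and 10.06.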

How the results depend on the processing

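No called difference changed direction under any alternative run on genes. The 17 genes called between the stem cell groups became 27 with array weights (25 higher, 2 lower). Calls over all 13251 genes rose as well with array weights, from 607 higher and 495 lower to 837 and 870. Leaving out 1 array gave 11 to 24, the first without E14 replicate 1 and the second without E14 replicate 3. The counts were 13 with a floor at the array median, 14 without the trended prior or with only the arrays compared, 15 with the mean of a gene's probe sets, 18 with quantile scaling, and 17 with a pseudocount of 32 or no filter. Over all 13251 genes, 502 were called higher and 445 lower with the floor. Without the trended prior 552 and 470 were, and with only the arrays compared 566 and 458. The mean of probe sets gave 632 and 474, quantile scaling 645 and 455, and the pseudocount 524 and 402. With no filter 580 and 438 of 18193 genes were called. With a filter of 5 or more arrays, 17 of 35 genes were called, where 569 and 420 of 11425 genes were called higher and lower. Tested as single probe sets, 90 of 92 were called in AG-haESC against MEF and 90 of 92 in E14 against MEF, a larger count because probe sets replace genes, and 24 between the stem cell groups (21 higher, 3 lower). Of all 23911 probe sets, 1036 were called higher and 714 lower between the stem cell groups. Otherwise 41 or 42 genes were called in each MEF comparison, 34 or 35 of 35 under the stricter filter; leaving out 1 array gave 41 to 42. With the replicate number as a block for E14 and MEF, which share numbers but could not be shown to be paired, 41 genes were called in E14 against MEF, 40 of them lower. With signals near the array medians, the lowest genes have only bounds.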
